A study of Bos taurus with 10 samples.

Results

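The genes of the mitochondrial ribosome were followed in bovine day 7 embryos. Members were all genes whose array name begins with MRPL (large subunit) or MRPS (small subunit) followed by a digit, which gave 75 of the 15505 genes named on the array, measured by 142 of its 43653 probes. A gene was represented by its brightest probe, and its other probes were checked against it. Of the 142 probes, 120 matched RefSeq by transcript accession and 22 by gene symbol.

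Embryos came from superovulated cows and were profiled on 10 one-colour arrays. Cows of the senktide groups received the peptide, an agonist of the neurokinin 3 receptor, intravenously at 30 nmol/min (4 arrays) or 300 nmol/min (4 arrays) for 2 h, starting 48 h after superovulation began. The vehicle group (DMSO) had 2 arrays. All cows were inseminated at 108 and 120 h, and embryos were flushed from the uterus on day 7. The labels do not say how many cows or embryos an array stands for, so a p-value measures the spread between these arrays, which may be technical. The tissue label reads embryos, whereas the text on RNA extraction speaks of endometrial samples.

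The mitochondrial ribosome translates the few messenger RNAs encoded by mitochondrial DNA, which specify core subunits of the respiratory chain and of ATP synthase. Its ribosomal RNAs come from mitochondrial DNA, but all of its proteins are encoded in the nucleus and imported. Some descend from bacterial ribosomal proteins, and others are found only in mitochondria. Cleavage embryos carry mitochondria inherited from the oocyte, and respiratory activity rises towards the blastocyst stage.

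A level is the log2 of the scanner's processed signal after subtraction of that array's 75th percentile over the probes detected on all arrays, and a probe is called detected where the scanner software marked it well above background. Between 7.17% and 19.6% of probe spots were detected per array. The arrays lay on 3 slides. All 3 groups were present on slide 1 and on slide 2, with a single array each, while slide 3 carried the other 4 senktide arrays without vehicle. Slide 3 stood apart, with 18.3% to 19.6% of spots detected against 7.17% to 13.2% on the other slides. The lowest signal called detected corresponded to a level of -2.56 and -3.30 on the vehicle arrays, -2.97 to -3.71 on the senktide arrays of slides 1 and 2, and -5.27 to -5.44 on slide 3. A dim probe could thus pass as detected on slide 3 at a level that did not pass elsewhere. Fewer cells and less RNA per cell cannot be told apart in whole embryos. Of the 10 embryo markers on the array, KRT8, KRT18, GATA2, GATA3, TFAP2C and SOX2 were detected on all 10 arrays, and NANOG and CDX2 on none. Of 17 markers of leukocytes, blood, uterine or oviduct epithelium and stroma, 1 (LYZ) was detected on all arrays, 7 on some and 9 on none. The 7 were CLU (7 arrays), PTPRC (5), ITGB2 and HBA (4 each), COL1A2 (3), DCN (2) and MUC1 (1). The 9 were CD74, S100A8, S100A9, HBB, ALAS2, OVGP1, PAEP, COL1A1 and COL3A1. The part of such cells in the results was not tested.

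The members are read through probes of 60 bases, and where a probe lies on the transcript often went with whether the gene was seen. MRPL38 and MRPL24, each with several probes on 1 RefSeq transcript record, are shown because their probes range from 0 to 10 arrays. For MRPL38, the probe that starts at base 925 of the record (chr19:57443949-57444008, plus strand, build Btau_3.1) was detected on 0 of 10 arrays, whereas the probe at base 1313 (chr19:57444548-57444607) was detected on all 10. For MRPL24, the probe at base 373 (chr3:15519083-15519142, plus strand) was detected on 0 arrays, that at base 598 (chr3:15519549-15519702, a span of 154 bases for 60 bases of probe, so that its letters are not contiguous in the genome) on 5, and that at base 750 on all 10. Probe letters are those of the array files, 5′ to 3′ on the sense strand; of the probe at base 1313 a window of 30 bases is shown, with the letters AATAAA, the most common polyadenylation signal, in capitals.
MRPL38 probe at base 925: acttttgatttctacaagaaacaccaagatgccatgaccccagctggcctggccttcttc
MRPL38 probe at base 1313: ggtagggtttccAATAAAgatttttgctgt
MRPL24 probe at base 373: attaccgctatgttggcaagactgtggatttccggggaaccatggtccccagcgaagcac
MRPL24 probe at base 598: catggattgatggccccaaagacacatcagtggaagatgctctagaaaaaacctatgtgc

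The same order held for most members with several probes on 1 record. Among 38 such records, the last probe was detected on more arrays than the first in 22, on fewer in 8 and on as many in 8. Of those with as many, 4 had both probes detected on all 10 arrays and 3 had both on none. Over the 34 records whose first and last probes lay more than 60 bases apart, the counts were 22, 8 and 4. The median distance between the first and last probe was 365 bases in the 22 and 740.5 bases in the 8. The same count was not made over all genes of the array, so the order cannot be called particular to the members. MRPL4 (base 1492 on 10 arrays, base 353 on 0) and MRPS27 (base 2067 on 10, base 486 on 0) followed the common order. MRPL51 (base 433 on 10 arrays, base 2757 on 0) and MRPL53 (base 855 on 10, base 2842 on 2) ran the other way. The letters AATAAA, searched on the printed strand alone, stood in 23 of the 142 member probes (16.2%) and in 9.35% of all probes. Of the member probes that hold them, 19 of 23 were detected on at least 2 arrays (82.6%), against 76 of the 119 that do not (63.9%). Over all probes these shares were 40.7% and 18.4%. MRPS26 is a further example, detected on all 10 arrays through a probe that holds the letters (chr13:52688329-52688388, minus strand, 30 bases printed).
MRPS26 probe at base 675: ggcctgatctgaAATAAAgcagttggtgtt

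**Figure D1:**
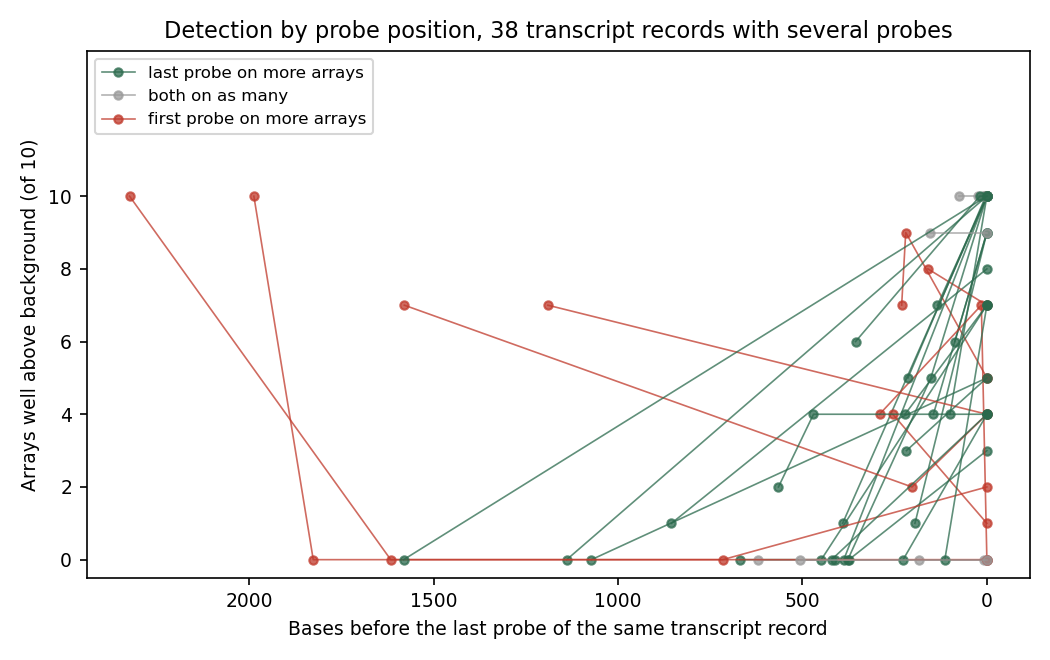
Number of arrays (of 10) on which each member probe was detected, against its distance in bases before the last probe of the same transcript record, for 38 records with several probes; lines join probes of 1 record. Green records, 22 of 38, had the last probe detected on more arrays than the first, red records (8) the reverse.

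The 4 members MRPL12, MRPL14, MRPL23 and MRPS33 each have 1 probe, designed on an expressed sequence tag, that lies on the genome strand opposite to the gene's RefSeq probes. None of these 4 probes was detected on any array, beside 28.9% of member probes and 74.4% of all probes that were detected on none. Of all 17 member probes designed on expressed sequence tags or single mRNA records, 5 were detected on at least 2 arrays.

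Mitochondrial ribosomal protein genes were widely detected in these embryos. The brightest probe was detected on all 10 arrays for 36 of 75 members (48.0%), against 1573 of 15505 named genes (10.1%). It was detected on at least 2 arrays for 67 members (89.3%), against 33.3% of named genes, and on no array for 8 members (10.7%), against 60.3% of named genes. These shares describe 1 probe per gene chosen for brightness and carry no test. Both subunits were represented: 23 of 48 large subunit members and 13 of 26 small subunit members were detected on every array. MRPS30 and MRPS18A are counted with the large subunit, where structures place them. MRPS36, which current annotation assigns to a dehydrogenase complex of the citrate cycle, is counted with neither.

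Large subunit proteins with a bacterial counterpart that were detected on all arrays numbered 14 of 30: MRPL2, MRPL4, MRPL10, MRPL11, MRPL13, MRPL16, MRPL18, MRPL21, MRPL22, MRPL24, MRPL27, MRPL35, MRPL36 and MRPL55. They include MRPL2 and MRPL4, which fold deep into the ribosomal RNA, and MRPL11, part of the stalk base where translation factors dock. Large subunit proteins known only from mitochondria gave 9 of 18: MRPL37, MRPL38, MRPL39, MRPL41, MRPL42, MRPL45, MRPL51, MRPL52 and MRPL53. Among these, MRPL45 lies at the tunnel exit and ties the ribosome to the inner membrane. Small subunit proteins with a bacterial counterpart gave 9 of 16 (MRPS5, MRPS7, MRPS11, MRPS14, MRPS15, MRPS16, MRPS18C, MRPS24 and MRPS28), and those found only in mitochondria gave 4 of 10 (MRPS18B, MRPS26, MRPS27 and MRPS33).

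The 8 members with no detected brightest probe were MRPL1, MRPL12, MRPL32, MRPL49, MRPS2, MRPS9, MRPS25 and MRPS34. They came from both subunits and from both classes of protein. MRPL12, the factor-binding stalk protein of the large subunit, is also reported to bind the mitochondrial RNA polymerase. Its probes at bases 496 and 503 of the transcript record, which overlap, and the probe on the opposite strand were all detected on 0 arrays. The earlier of the 2 overlapping probes (chr19:52607534-52607690, minus strand) is shown because the gene's lack of signal rests on this stretch.
MRPL12 probe at base 496: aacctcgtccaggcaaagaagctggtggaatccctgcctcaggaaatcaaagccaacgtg
At these arrays' background the transcript was not detectable through this stretch, which does not show that it is absent. MRPS9 had 1 dimmer probe that was detected on 1 array.

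The number of members detected on an array was 38 and 48 on the vehicle arrays, then 55, 44, 66 and 67 under the lower dose and 56, 56, 66 and 66 under the higher. The group means were 43.0 ± 7.07 (SD, n = 2), 58.0 ± 10.8 (n = 4) and 61.0 ± 5.77 (n = 4). The 4 arrays of slide 3 held 66 to 67 members, and the 6 arrays of slides 1 and 2 held 38 to 56. On slide 1 the order was vehicle 38, 30 nmol/min 55 and 300 nmol/min 56. On slide 2 it was 48, 44 and 56, so the 30 nmol/min array stood below vehicle. The share of all spots detected moved with these counts: 7.17% and 9.44% on the vehicle arrays, 8.77% to 13.2% on the senktide arrays of slides 1 and 2, and 18.3% to 19.6% on slide 3. The part of array-wide sensitivity in the members' counts was not tested. Of the 6 members detected on exactly 9 arrays, 5 (MRPL3, MRPL17, MRPL19, MRPL44 and MRPL48) were missing on vehicle replicate 1 and MRPL20 on vehicle replicate 2.

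**Figure D2:**
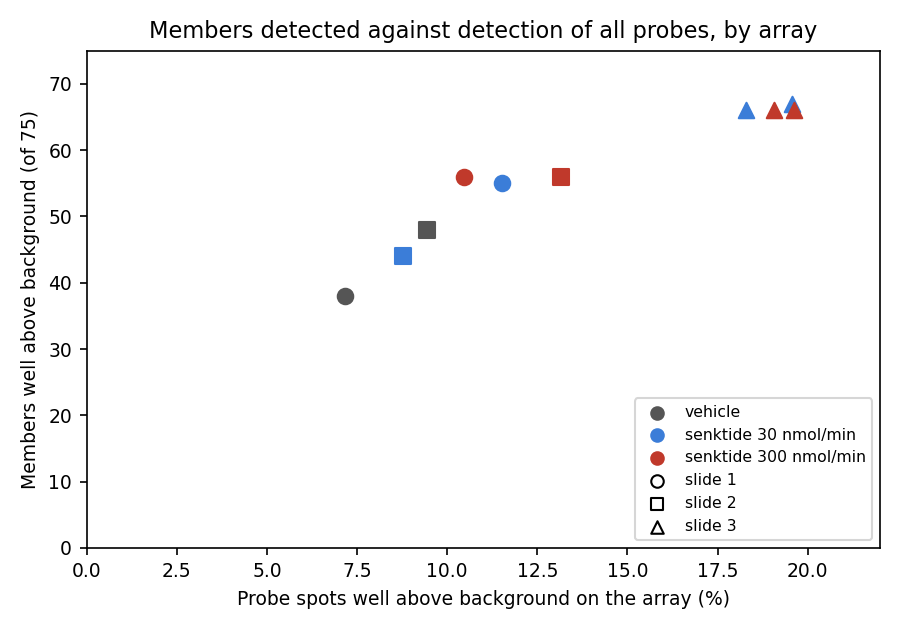
Number of the 75 members detected on each array against the percentage of all probe spots detected on that array; colour gives the group and symbol the slide. The 4 arrays of slide 3 lie together at 66 to 67 members, and vehicle replicate 1 is lowest at 38.

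**Figure D3:**
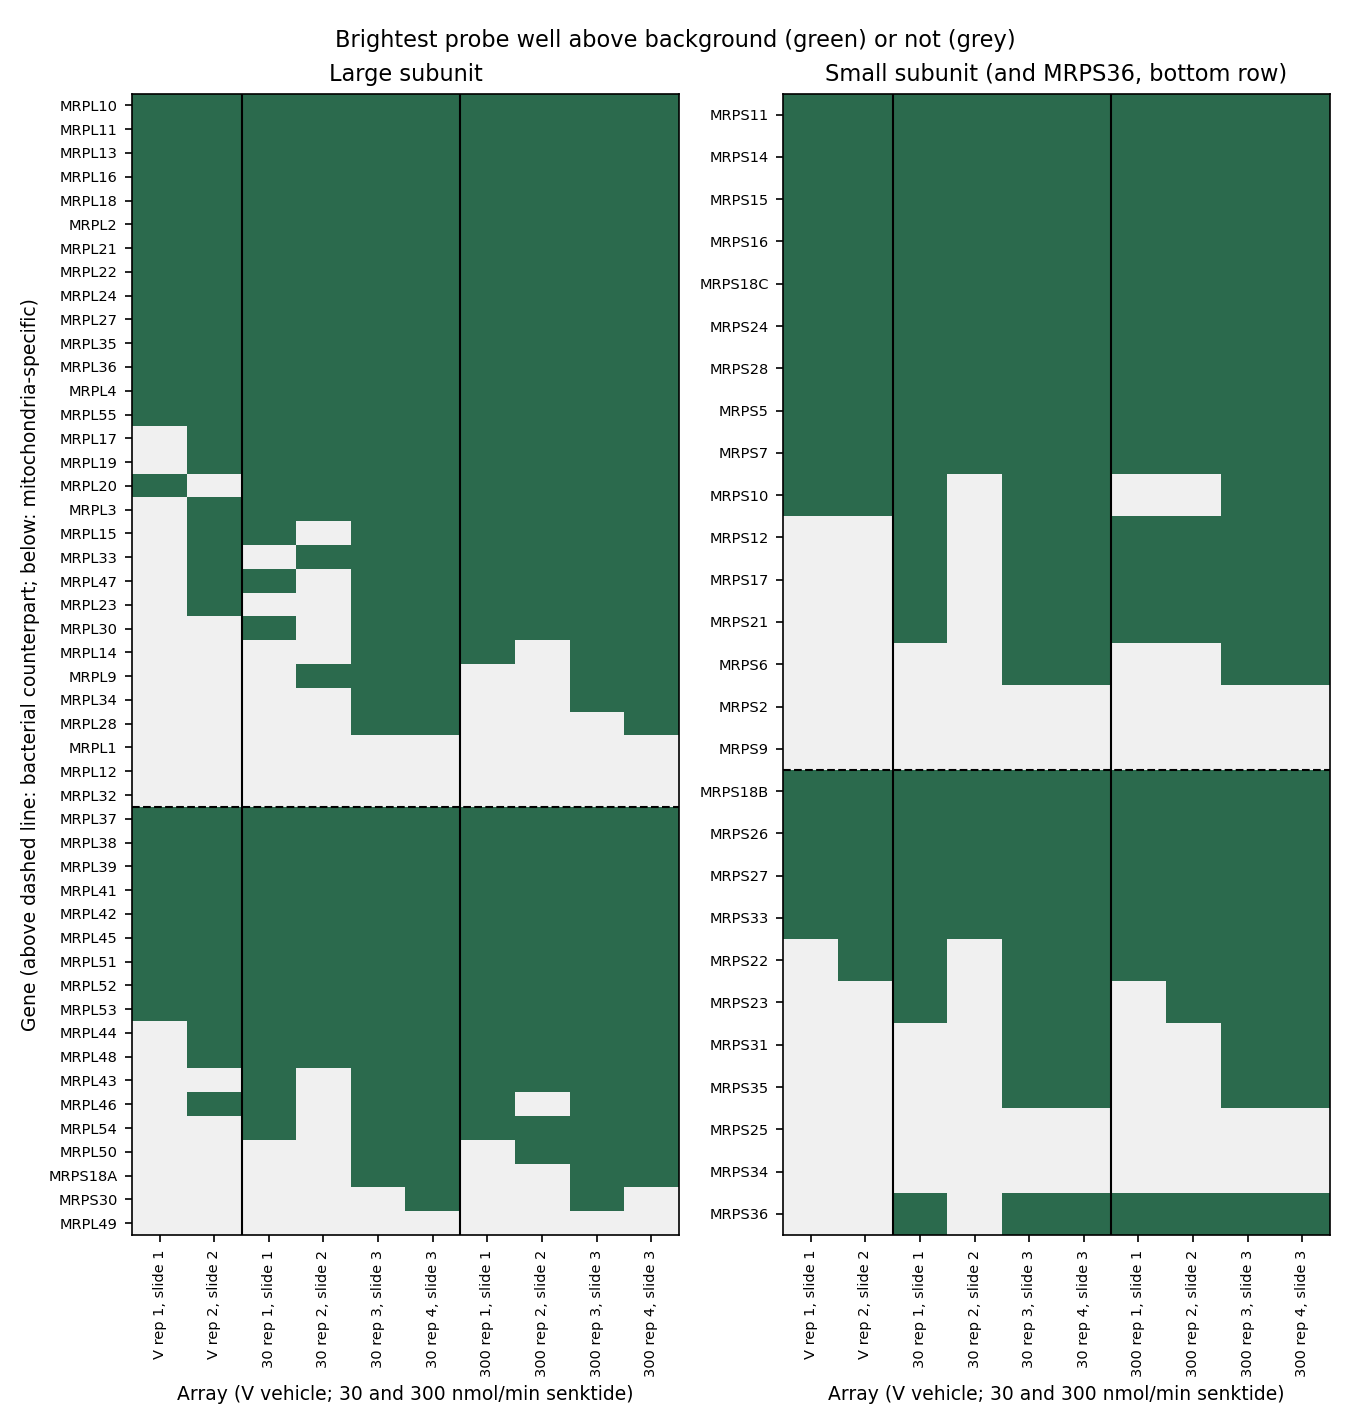
Detection of the brightest probe of each of the 75 members (rows) on each of the 10 arrays (columns), green where well above background. In 36 rows every array is green and in 8 none is.

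On all 4 arrays of the 300 nmol/min group, on 3 of 4 at 30 nmol/min and on no vehicle array, 7 members were detected: MRPL30, MRPL43, MRPL54, MRPS12, MRPS17, MRPS21 and MRPS36. Of all 8935 probes tested, 5.72% were detected on all 4 arrays at 300 nmol/min and on no vehicle array. In each of the 7 the missing array at 30 nmol/min was replicate 2, the senktide array with the lowest share of detected spots. Their levels were not alike, since MRPL54 and MRPS12 had lower means at both doses than in vehicle (differences from -0.09 to -0.35), whereas MRPL43 and MRPS21 had higher ones.

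Members detected on every array varied within groups about as much as all probes so detected. MRPS27, the most variable of them, read -2.20 and -1.02 on the vehicle arrays. The SD within groups of the 36 members detected on all arrays ran from 0.11 (MRPL22) to 0.41 (MRPS27), with a median of 0.22, the same as the median of 0.22 over all probes detected on all arrays. MRPL22, a protein that lines the exit tunnel, read -0.91 and -1.04 on the vehicle arrays. At 30 nmol/min it read -0.67, -0.80, -0.65 and -0.54, and under the higher dose -0.65, -0.60, -0.85 and -0.67. MRPL38 read 0.36 and -0.22 in vehicle, then 0.12, 0.12, -0.47 and 0.01 under the lower dose and -0.02, -0.17, -0.12 and -0.08 under the higher. Its groups overlapped fully, while MRPL22 was lower on both vehicle arrays than on any senktide array by a small step. For the 31 members detected on 2 to 9 arrays the median SD was 0.34, against 0.50 over all probes of that kind.

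Levels were compared between groups to ask whether senktide given to the donor cow went with a different embryo transcriptome. No member passed the test in any comparison. With limma across 8935 probes detected on at least 2 arrays and Benjamini-Hochberg adjustment at 0.05, 0 of 67 tested members were called at 30 nmol/min against vehicle (0% of all probes), 0 at 300 nmol/min against vehicle (0.0112%), 0 at 300 against 30 nmol/min (0%) and 0 with both doses pooled against vehicle (0.0336%). With so few probes called in all, a count of 0 members does not set them apart. Probes detected on no vehicle array, MRPL43, MRPS21, MRPL34, MRPS6 and MRPS35 among them, entered the test through senktide arrays alone. Their p-values against vehicle are therefore not independent of the detection filter. The median difference of the tested members was -0.04 at 30 nmol/min and -0.10 at 300 nmol/min, beside -0.11 and -0.11 over all tested probes. The members' medians turned on single arrays: without vehicle replicate 1 they were 0.04 and 0.04, and without vehicle replicate 2 -0.12 and -0.19 (all tested probes -0.09 and -0.08, then -0.17 and -0.18). Without replicate 3 of 30 nmol/min the median at that dose was 0.01. Both doses share the vehicle arrays, so their values are not independent of each other.

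At an unadjusted p under 0.05, limma gave 5 members higher at 30 nmol/min (4.94% of all probes) and 4 lower (6.32%). At 300 nmol/min it gave 4 higher (5.88%) and 4 lower (7.92%). These shares of 67 members lie near the background of all probes. Groups did not overlap for 9 members higher (7.62% of all probes) and 6 lower (11.9%) at 30 nmol/min, and for 7 higher (9.21%) and 11 lower (16.3%) at 300 nmol/min. Among members detected on all arrays, 26 of 36 lay lower than vehicle at 300 nmol/min, with a median difference of -0.11, beside 1424 of 2491 probes detected on all arrays and their median of -0.06. The sign and size of such medians depend on the scale. Centring each array on the 75th percentile of all probes instead moved every difference up by 1.06 at 30 nmol/min and 1.17 at 300 nmol/min, so that 67 and 66 of 67 members were higher (8213 and 8237 of 8935 probes), while still 0 members were called. Differences below are therefore read against the other probes of the same fit and not as absolute changes.

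**Figure D4:**
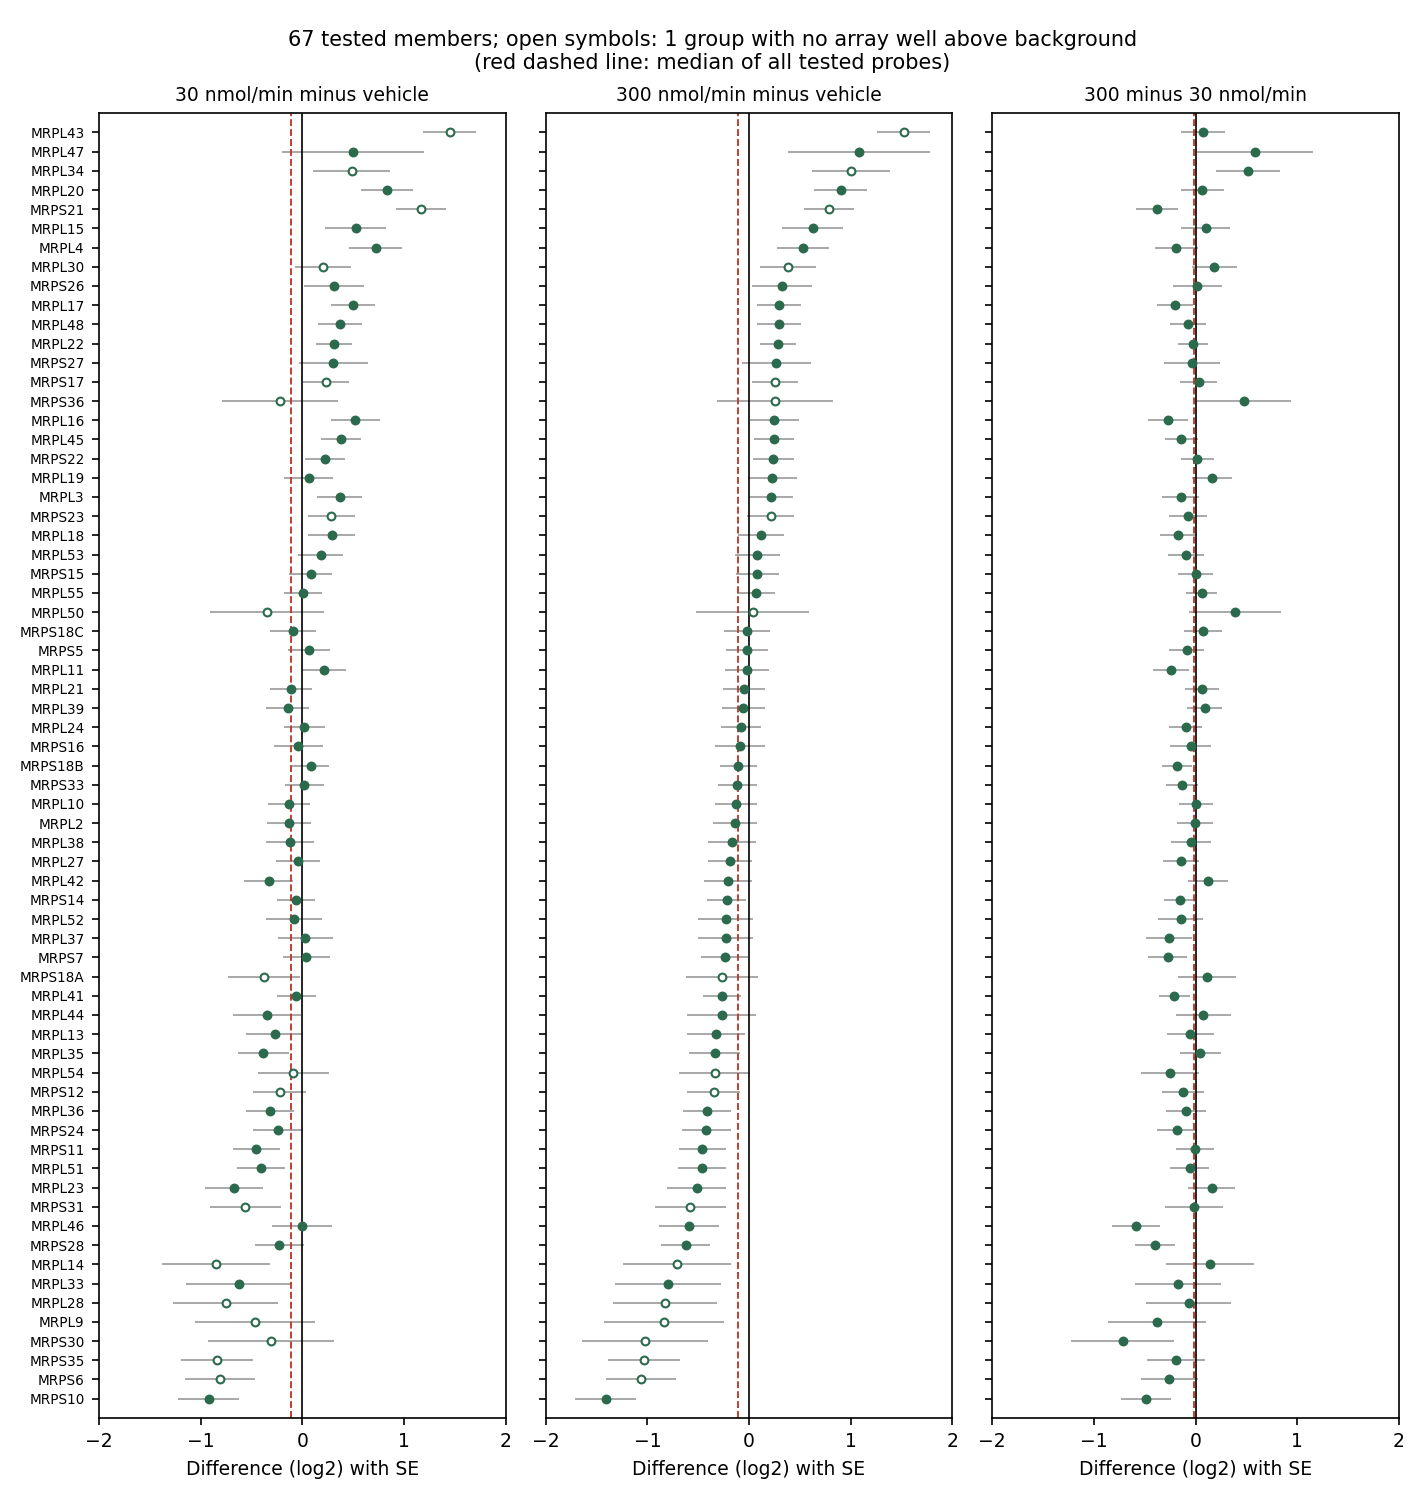
Fitted log2 differences with their standard errors for the 67 tested members in 3 comparisons, ordered by the difference at 300 nmol/min; open symbols mark members with 1 group without any detected array, and the dashed line marks the median of all tested probes. MRPL43 is at the top (1.45 and 1.52 against vehicle) and MRPS10 at the bottom (-0.92 and -1.41), and no member passed the adjusted threshold.

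Among large subunit members, MRPL43, a protein found only in mitochondrial ribosomes, had the smallest p of the family. It passed the detection filter through 7 senktide arrays alone. It read -4.22 and -4.38 on the vehicle arrays, then -2.85, -3.26, -2.66 and -2.63 under the lower dose and -3.07, -2.91, -2.80 and -2.33 under the higher. The vehicle arrays were the lowest of all 10 and did not overlap with either dose. The difference was 1.45 (SE 0.26, limma adjusted p = 0.184) at 30 nmol/min, 1.52 (SE 0.26, adjusted p = 0.142) at 300 nmol/min and 1.49 (adjusted p = 0.0902) with the doses pooled. Within slides it was 1.37 and 1.12 under the lower dose and 1.15 and 1.47 under the higher. Neither array behind the 1.12 (slide 2) detected the probe. Since neither vehicle array detected the probe, no fold can be given. A bound from the lowest detected signal would not hold, because undetected probes could read above it. On vehicle replicate 1 that signal stood at -2.56, and MRPL23 read -2.30 there without being detected. Quantile normalization called MRPL43 at both doses (limma adjusted p = 0.0460 and 0.0282) and normexp with quantile normalization at 300 nmol/min (0.0485). Over all alternatives its adjusted p reached 1.00 at each dose.

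The probes of MRPL43 did not read alike. Among its 4 probes, 3 (chr26:22125967-22126026, chr26:22125981-22126044 and chr26:22125929-22125966, minus strand) share a stretch of letters that differs between them by inserted bases alone, given in capitals against the shortest. The stretch is printed because it separates the probe that gave the values above from the others.
MRPL43 probe at base 883: ctatgtgAatgtttgtgtgcagAttagaaa
MRPL43 probe at base 839: ctatgtgatgtttgtgtgcagAttagaaa
MRPL43 probe at base 898: ctatgtgatgtttgtgtgcagttagaaa
The first, with 2 extra bases, was detected on 7 arrays. The second, with 1, was detected on 4 arrays and differed from vehicle by 0.37 and 0.36 (SE 0.58). The shortest was detected on 0 arrays, and its coordinates in the files span 38 bases. The remaining probe, at base 607, was detected on 4 arrays and differed by 0.31 and -0.01 (SE 0.49). Whether the bases set these readings was not tested.

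MRPL20, which in bacteria binds the ribosomal RNA early in large subunit assembly, was the next large subunit member by p. It read -1.70 and -2.49 in vehicle, then -1.61, -1.10, -1.26 and -1.07 under the lower dose and -1.30, -1.19, -1.07 and -1.22 under the higher. All 8 senktide arrays lay above both vehicle arrays, the nearest by little. The difference was 0.83 (SE 0.26, limma adjusted p = 0.315) and 0.90 (SE 0.26, adjusted p = 0.235), or 1.78-fold and 1.87-fold, with 1 of the 2 vehicle arrays above background. Within slides it was 0.09 and 0.40 on slide 1, and 1.39 and 1.30 on slide 2, where the vehicle array was not above background. Its second probe, at base 511, gave like differences of 1.08 and 1.02 (SE 0.29). With normexp and quantile normalization MRPL20 was called with the doses pooled, but at neither dose alone (limma adjusted p = 0.0823 and 0.0570).

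MRPL4, an exit tunnel protein, read -0.90 and -1.14 in vehicle, then -0.46, -0.07, -0.29 and -0.38 under the lower dose and -0.81, -0.81, -0.25 and -0.09 under the higher, and was detected on every array. The difference was 0.72 (SE 0.26, limma adjusted p = 0.372) and 0.53 (SE 0.26, adjusted p = 0.379). At 300 nmol/min the arrays of slide 3 were the high ones, and within slides 1 and 2 the difference was 0.09 and 0.34. MRPL16, MRPL17, MRPL15 and MRPL34 were the other higher members named by the smallest p. Their differences ran from 0.48 to 0.52 at 30 nmol/min and from 0.25 to 1.00 at 300 nmol/min, with adjusted p from 0.309 to 0.631. MRPL34 was detected on no array of slides 1 and 2, vehicle included, and no fold can be given for it. On the lower side, MRPL23, a protein of the tunnel exit, differed by -0.67 and -0.52, and MRPL51 by -0.40 and -0.46 (adjusted p from 0.396 to 0.506).

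Among small subunit members MRPS10 and MRPS21 had the smallest p, in opposite directions. MRPS10, a protein of the subunit head, read -2.05 and -3.16 in vehicle, then -3.42, -3.49, -3.54 and -3.67 under the lower dose and -3.76, -3.99, -4.35 and -3.97 under the higher. The 3 groups did not overlap, in the order vehicle, 30 and 300 nmol/min. The difference from vehicle was -0.92 (SE 0.30, limma adjusted p = 0.328) at 30 nmol/min and -1.41 (SE 0.30, adjusted p = 0.172) at 300 nmol/min, and that between doses was -0.49 (SE 0.24, adjusted p = 1.00). At 300 nmol/min the within-slide differences were -1.70 on slide 1 and -0.83 on slide 2, both with a senktide array not above background. Without vehicle replicate 2, which leaves the high vehicle array alone and assumed to vary like the arrays of the other groups, MRPS10 was called at 300 nmol/min (adjusted p = 0.0241, over all alternatives up to 0.987). It was also the 1 member still lower than vehicle at 300 nmol/min when arrays were centred on all probes. The brightest probe was designed on an expressed sequence tag (chr23:16544194-16544253, minus strand), and 30 bases around its polyadenylation letters are shown because the RefSeq probe lies elsewhere.
MRPS10 probe at base 572: tgagaactgatcAATAAAacagaaccaata
The RefSeq probe of MRPS10 was detected on 6 arrays and differed from vehicle by -0.65 and -0.55 (SE 0.35), with 0.09 between doses. It shared the direction against vehicle and not the step between doses.

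MRPS21, a small RNA-binding protein of the platform, read -3.78 and -4.34 in vehicle, then -2.92, -2.76, -3.10 and -2.78 under the lower dose and -3.26, -2.89, -3.56 and -3.37 under the higher. Both vehicle arrays lay below all senktide arrays and neither detected the probe. The probe passed the detection filter through senktide arrays alone, and replicate 2 of 30 nmol/min (-2.76) did not detect it either. The difference was 1.17 (SE 0.25, limma adjusted p = 0.204) and 0.79 (SE 0.25, adjusted p = 0.259). These are readings against background, and no fold can be given. Quantile normalization, with and without normexp background correction, called MRPS21 at both doses (adjusted p from 0.00811 to 0.0445, over all alternatives up to 1.00). The probe (chr3:21876686-21876745, minus strand) is printed because it starts well before the other probes of its record.
MRPS21 probe at base 242: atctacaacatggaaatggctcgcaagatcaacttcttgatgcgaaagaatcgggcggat
The other MRPS21 probes, at bases 1618 and 1821, were detected on 2 and 4 arrays and lay lower than vehicle. At base 1618 the difference was -0.73 and -0.08 (SE 0.30). At base 1821 it was -0.76 (SE 0.35) at 300 nmol/min, and its levels were -4.36 and -3.10 in vehicle and -4.38 to -5.07 at 30 nmol/min. The 3 probes of MRPS21 therefore disagreed in direction at both doses.

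**Figure D5:**
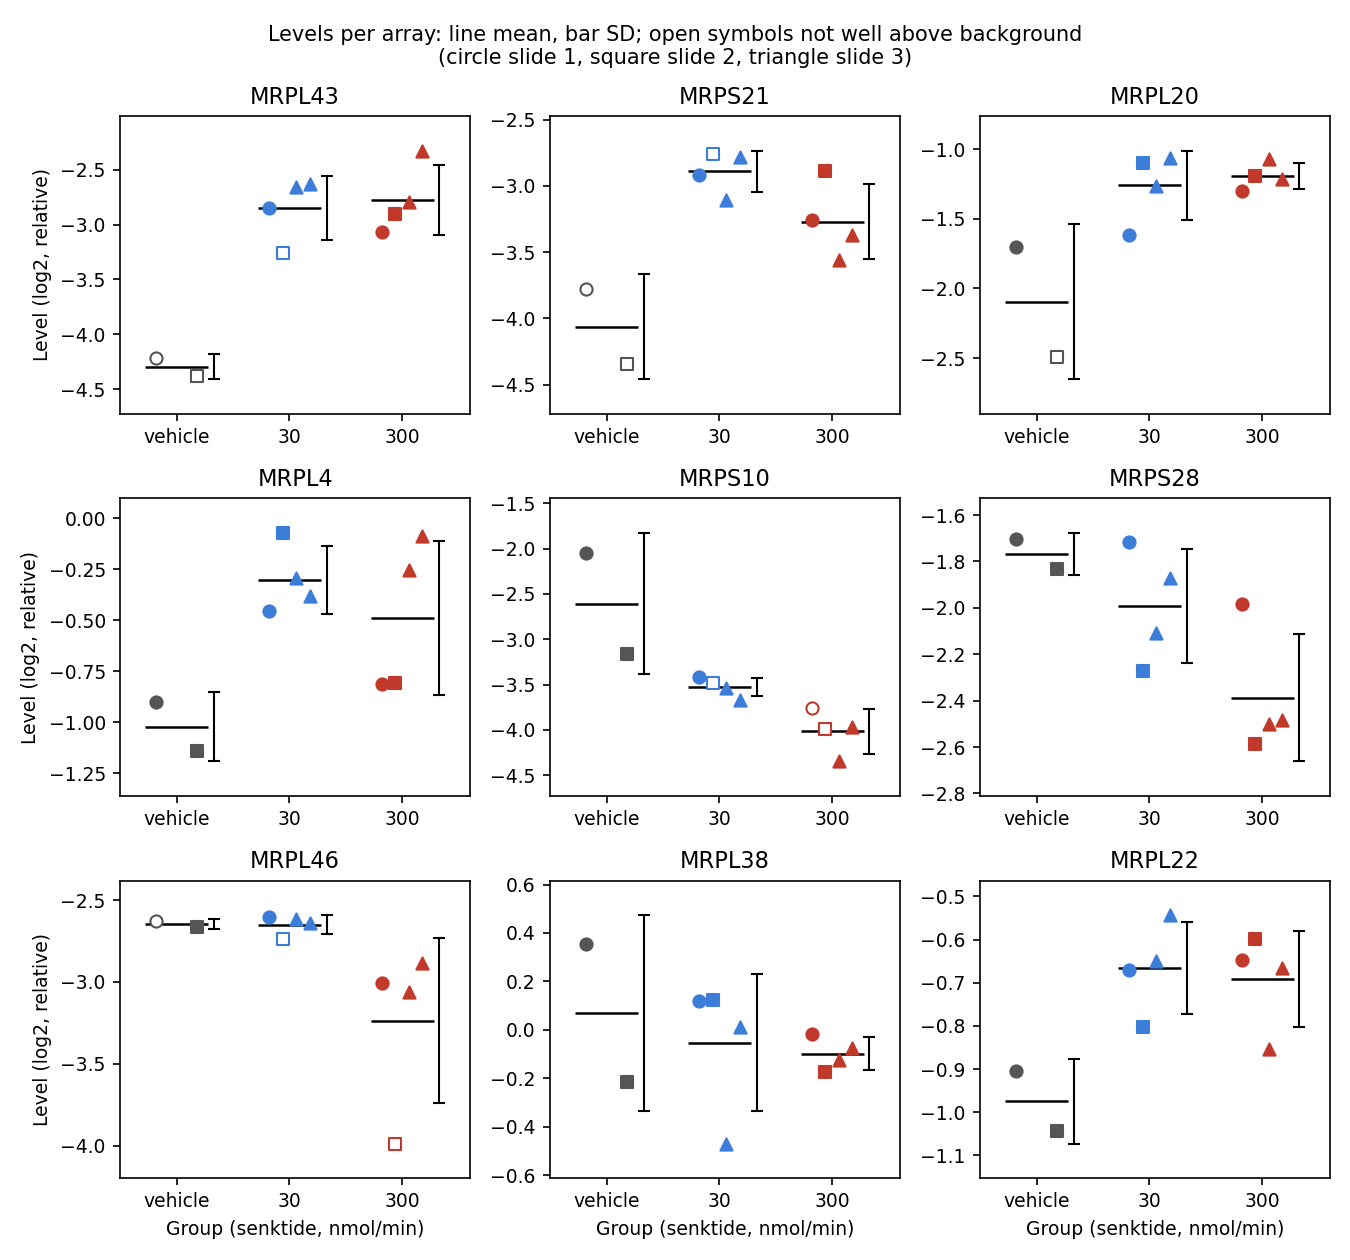
Level (log2, relative to each array's 75th percentile of detected probes) of 9 members on each array, with the group mean (line) and SD (bar); open symbols are arrays on which the probe was not well above background. MRPL43 and MRPS21 are open and low on both vehicle arrays, MRPS10 steps down over the 3 groups, and MRPL38 and MRPL22 vary within 1 unit.

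MRPS6, MRPS35, MRPS28 and MRPS11 were the other small subunit members with the smallest p on the lower side. MRPS6 and MRPS35 differed by -0.81 and -0.84 at 30 nmol/min and by -1.07 and -1.03 at 300 nmol/min (adjusted p from 0.266 to 0.427). Neither was detected on a vehicle array, or on any array outside slide 3, so their vehicle levels lie at background and no fold can be given. MRPS28 was detected everywhere and read -1.70 and -1.83 in vehicle, then -1.72, -2.27, -2.11 and -1.87 under the lower dose and -1.98, -2.59, -2.50 and -2.48 under the higher. Its difference of -0.62 (SE 0.24, limma adjusted p = 0.315) at 300 nmol/min was a 1.54-fold lower level, and that at 30 nmol/min was -0.23. All arrays at 300 nmol/min lay below both vehicle arrays. MRPS11 differed by -0.46 at each dose, and its second probe, 9 bases further along, by -0.65 and -0.77.

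The doses were also compared with each other. The median difference of 300 minus 30 nmol/min was -0.07 over the 67 members and -0.01 over all tested probes. At an unadjusted p under 0.05 limma gave 0 members higher (1.68% of all probes) and 1 lower (1.33%), and the groups did not overlap for 0 higher (1.54%) and 3 lower (1.15%): MRPL46, MRPS10 and MRPL11. MRPL46, a large subunit protein found only in mitochondria, read -2.61, -2.74, -2.62 and -2.64 under the lower dose and -3.01, -3.99, -3.06 and -2.89 under the higher. The difference was -0.59 (SE 0.24, limma adjusted p = 1.00), and the low array of slide 2 was not above background. Its vehicle arrays read -2.63 and -2.67, like those at 30 nmol/min. The probe was also not above background on vehicle replicate 1 and on replicate 2 of 30 nmol/min. MRPL11 differed by -0.24 and was detected on every array. Of the 22 tested small subunit members 17 were lower at 300 than at 30 nmol/min, with a median of -0.11, against 4628 of 8935 probes. Centring on the 75th percentile of all probes instead moved the members' median to 0.047 and left 27 of 67 members lower, where the main scale had 43. Each small subunit member moved up by the same step, so their count and median also depend on the scale. The other members named for this comparison, MRPL19, MRPL30, MRPL34, MRPL47, MRPL50 and MRPS36 on the higher side and MRPS7, MRPS21, MRPS28 and MRPS30 on the lower, differed by -0.72 to 0.59 with an adjusted p of 1.00 each.

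The members that passed a test did so between slides. Over the 8 senktide arrays, with dose in the model, 4 members differed between slide 3 and slides 1 and 2 (limma adjusted p under 0.05), all lower on slide 3 (12.2% of all probes), and 0 were higher (2.92%). The test was added after the values had been seen. The 4 were MRPL14 (-1.11), MRPS30 (-1.28), MRPL33 (-1.09) and MRPL44 (-0.69), with adjusted p from 0.00765 to 0.0258. MRPL44 was detected on all 8 senktide arrays. On slides 1 and 2, MRPL33 was detected on 3 of the 4 senktide arrays, MRPL14 on 1 and MRPS30 on 0, where the lowest signal called detected stood at -2.97 to -3.71 against -5.27 to -5.44 on slide 3. The values of MRPL14 and MRPS30 thus set slide 3 against readings mostly at background and give no fold. On slide 3 itself, MRPS30 was not detected on replicate 3 of 30 nmol/min or on replicate 4 of 300 nmol/min. The part that the difference in the lowest detected level had in these values was not tested. MRPL33 read -3.36, -2.19, -2.86 and -3.09 on the senktide arrays of slides 1 and 2, and -4.01, -3.77, -4.22 and -3.85 on slide 3. Vehicle, which has no array on slide 3, read -2.67 (replicate 1, not detected) and -2.75, near the senktide arrays of slides 1 and 2. The difference of MRPL33 from vehicle at 300 nmol/min was -0.80 over all arrays and -0.20 and -0.34 within slides 1 and 2. MRPL47, which did not pass, had the opposite sign (1.09, adjusted p = 0.0852). MRPL47 was low on vehicle replicate 1 (-4.62) and replicate 2 of 30 nmol/min (-4.80), and neither array detected the probe. It read -3.25 to -2.19 on the other 8 arrays, which all detected it. The slide holds different samples as well as a different hybridization, and these cannot be told apart.

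Probes of 1 gene were compared for 22 tested members with more than 1 tested probe. The other probes shared the brightest probe's direction in 16 of the 22 at 30 nmol/min, in 11 at 300 nmol/min and in 11 between doses. MRPL45 shows the spread. Its probes at bases 1276 and 1279 overlap by all but 3 bases and were both detected on all 10 arrays. The first read -1.39 and -1.23 in vehicle, then -0.97, -0.78, -1.11 and -0.85 under the lower dose and -0.80, -1.11, -1.24 and -1.13 under the higher. The second read -2.13 and -1.23, then -1.50, -1.82, -2.03 and -3.61, then -1.37, -1.33, -3.36 and -2.11. The second probe was lowest on 2 arrays of slide 3, where the first was not, and the differences from vehicle took opposite signs (0.38 and 0.24 against -0.56 and -0.36).

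Genes that build, load or serve the mitochondrial ribosome were taken from lists chosen with earlier results of these data known. None was called in any comparison, in 6 tested genes of other mitoribosome proteins, 15 of assembly and ribosomal RNA modification, 11 of translation factors, 17 of mitochondrial DNA maintenance, transcription and RNA processing, and 4 nuclear regulators. The unadjusted limma p was under 0.05 at 300 nmol/min for 4 of these 53 genes higher (7.55%, beside 5.88% of all probes) and 4 lower (7.55%, beside 7.92%), shares near the background. Among other mitoribosome proteins, the small subunit protein AURKAIP1 differed by -0.55 and -0.50 and PTCD3 by -0.45 at 30 nmol/min, while CHCHD1 differed by 0.87 at 300 nmol/min (limma adjusted p from 0.328 to 0.492). MALSU1, which keeps unfinished large subunits from joining the small one, differed by 1.16 and 0.99 (adjusted p = 0.258 and 0.232), though its second tested probe ran the other way. RPUSD4, a pseudouridine synthase, differed by 0.86 at 30 nmol/min and the helicase DHX30 by -0.40 at 300 nmol/min.

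GFM2, the factor that splits the mitochondrial ribosome for reuse, differed by 0.88 and 0.99 (limma adjusted p = 0.354 and 0.255) and was not detected on a vehicle array. MTFMT, which formylates the initiator methionyl-tRNA, differed by -2.14 and -2.06 (SE 0.82, adjusted p = 0.396 and 0.322), and by -1.23 and -1.15 with the slide as a block. It was detected on both vehicle arrays and on 1 array of each dose. TFAM, which packages and transcribes mitochondrial DNA, differed by -1.24 and -0.83 (adjusted p = 0.289 and 0.328) and was detected on 4 arrays and on no vehicle array. TFB2M, a transcription factor of mitochondrial DNA, differed by 0.49 at 30 nmol/min. HSD17B10, a subunit of the enzyme that trims mitochondrial tRNA precursors, was detected on all arrays and differed by 0.61 at 300 nmol/min (adjusted p = 0.287). The nuclear regulators GABPB1 and PPRC1 differed by -0.36 to -0.73, and neither was detected on a vehicle array. For CHCHD1, MALSU1, RPUSD4, GFM2, TFAM, GABPB1 and PPRC1, none of them detected in vehicle, the differences are readings against background, and no fold can be given.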

How the data were processed

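Cy3-labelled cRNA of 10 embryo samples was read on 1-colour Agilent 60-mer arrays. The authors deposited scanner files with intensity values per spot (processed signal, detrended across the array by the scanner software, with surrogate values for low signals, per the file headers) and flags for spots well above background. Per the file headers they come from Feature Extraction 11.5.1.1, and per the submitters' processing notes from version 10.5.1.1. Labelling used the Quick Amp kit, per the labels' protocols. The authors also deposited a table of log2 values, used as an alternative only; on every array at least 99.9% of its values lay within 0.01 of log2 signals minus the 75th percentile of all probes, centred on each probe's median over arrays. The number of arrays limits the precision.

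Processed signals were averaged over non-outlier spots, log2-transformed and reduced by each array's 75th percentile over 2492 probes well above background on all arrays (2491 of them, and 1 probe with only outlier spots on 1 array and above background on the others). Probes well above background on at least 2 arrays (8935) were tested with limma 3.58.1 in R 4.3.3, 1 coefficient per group over all 10 arrays, with Benjamini-Hochberg adjustment, and the code was tested on simulated data. Named members are those with the 6 smallest p on each side of each comparison, those detected on all arrays of a group and none of another, those detected on all 10 arrays, and MRPL43, MRPS10 and MRPL12. The values of MRPL22, MRPL38, MRPL33, MRPL45, MRPL14 and MRPL44 were chosen for description after they were seen. The members and lists were chosen with earlier results of these data known. Gene symbols come from RefSeq (ARS-UCD2.0), and coordinates from the files (Btau_3.1).

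Replicate numbers follow the slides. The deviations of same-numbered senktide arrays from their group means correlated at 0.487 to 0.574 over tested probes. Different numbers on slide 3 correlated at 0.492 and 0.544, and numbers of slide 1 with slide 2 at 0.413 and 0.417, while arrays of slide 3 and of the other slides correlated at -0.531 to -0.472. High values were thus not limited to the same number, and the labels do not say what a replicate number shares. The main fit therefore did not pair the arrays, and a fit with the replicate number as a block was an alternative. The other alternatives were 5 other scalings, filters on dim probes, a common floor, the mean over a gene's probes, the slide as a block, slides 1 and 2 alone, and leaving out each array.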

Additional observations from a re-analysis of the deposited data

Results flagged for a closer look

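Among 59 tested members (those detected on all arrays, those with the smallest p, those split by group in detection, and MRPL14, MRPL33 and MRPL44), each senktide group was checked for an array far from the other 3, which chance alone flags in about 1 of 20 groups; 7 of 118 were flagged. MRPL30 at 30 nmol/min read -3.23 on replicate 2, with the others between -2.60 and -2.55, and that array did not detect the probe. MRPL46 at 300 nmol/min read -3.99 on replicate 2, again not detected, with the others between -3.06 and -2.89. MRPL54 at 30 nmol/min read -2.96 on replicate 1, with the others between -3.53 and -3.49. MRPS28 at 300 nmol/min read -1.98 on replicate 1, with the others between -2.59 and -2.48. MRPL11 at 30 nmol/min read -0.36 on replicate 2, with the others between -0.71 and -0.66. MRPS14 at 30 nmol/min read -1.99 on replicate 2, with the others between -1.65 and -1.59. MRPS5 at 30 nmol/min read -1.37 on replicate 1, with the others between -1.13 and -1.09.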

How the results depend on the processing

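The count of called members was 0 in all 4 comparisons with the replicate block, with the slide as a block, on slides 1 and 2 alone and without vehicle replicate 1 and senktide 30 nmol/min replicate 2 (an alternative added after seeing the data); the replicate block changed no call. Quantile normalization called 2 members at 30 nmol/min, 2 at 300 nmol/min and 2 with doses pooled, and with normexp 1, 2 and 3; the cause was not tested. Leaving out 1 array gave 0 to 1 called at 300 nmol/min and with doses pooled, the 1 being MRPS10 without vehicle replicate 2. The median difference of members at 30 nmol/min, 300 nmol/min and pooled was 1.01, 1.07 and 1.02 with the 75th percentile of all probes, 1.01, 1.07 and 1.01 in the authors' table, 1.28, 1.32 and 1.27 with the median of all probes, and 0.10, 0.082 and 0.058 with quantile normalization. With normexp it was 0.057, 0.020 and 0.035. Over all tested probes these medians were 0.32, 0.37 and 0.34 with quantile normalization and 0.079, 0.090 and 0.087 with normexp. They were 0.95, 1.06 and 1.00 with the 75th percentile of all probes, and 1.21, 1.31 and 1.26 with the median of all probes. Between doses it was 0.047 with the 75th percentile of all probes and 0.047 in the authors' table. Leaving out 1 array gave -0.12 to 0.038 at 30 nmol/min, -0.19 to 0.035 at 300 nmol/min and -0.15 to 0.035 pooled, and leaving out the 2 arrays with fewest members detected gave 0.058, 0.035 and 0.062. With the scanner's weaker flag (signal positive and significant), 70.0, 71.5 and 72.5 members were detected per array in vehicle, 30 and 300 nmol/min. Relative to the median of all tested probes, 3543 of 4002 values of 59 members under alternatives kept their sign without a call, 8 kept it with a call and 451 changed sign without a call. On slides 1 and 2, vehicle included, a dim probe needed a higher level to pass as detected than on slide 3.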
